A study of Mus musculus with 22 samples.

Results

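Replication-dependent histone genes were taken as the genes whose symbol begins with Hist1h, Hist2h, Hist3h or Hist4h, which selected 69 of the 24467 genes measured. For each gene, CUT&RUN reads were counted in a window of 5000 bp centred on its annotated transcription start site (TSS). The windows of these genes are crowded: 62 of 69 (89.9%) overlapped the window of another gene by at least 1 base, against 21.9% of all windows, so neighbouring histone genes share reads and are not independent measurements. By class, the 69 genes comprised 6 linker H1, 19 H2A, 19 H2B, 12 H3 and 13 H4 genes. By cluster, 55 belonged to Hist1 on chromosome 13, 10 to Hist2 on chromosome 3, 3 to Hist3 on chromosome 11 and 1 to Hist4 on chromosome 6.

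Replication-dependent histone genes supply the core and linker histones that package new DNA during S phase. Most lie in clusters, lack introns and give mRNAs that end in a stem-loop bound by SLBP instead of a poly(A) tail, and their transcription depends on NPAT, a target of cyclin E and CDK2. H3K4me3 is a mark of active or poised promoters. H3K27me3 is laid down by Polycomb repressive complex 2 (PRC2), of which SUZ12 is a core subunit, while MTF2 and JARID2 are accessory subunits of its separate variants.

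Mouse embryonic stem cells (ESC) were compared with neural progenitor cells (NPC) made from them. All 22 libraries came from C57BL/6 cells whose genotype is labelled as untagged with Tir1, a plant F-box protein used for auxin-induced protein degradation, and whose treatment is labelled untreated. ESC were kept in LIF (100 U/mL), CHIR99021 (3 µM) and PD0325901 (1 µM), which inhibit GSK3 and MEK. NPC received bFGF (10 ng/mL) for 72 h and then the Hedgehog pathway agonist SAG (500 nM) for 48 h. In each cell type, SUZ12, JARID2, MTF2, H3K27me3 and H3K4me3 were profiled in 2 libraries each and IgG, the background control, in 1. The design text calls the 2 libraries biological replicates, but the labels do not say how many cell lines or clones were used. In such bulk chromatin, a mark on fewer cells cannot be told apart from less of it per cell.

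Depth, taken as the total count over all windows, was 3264267 to 8425292 for H3K4me3, 647615 to 1569812 for H3K27me3, 339591 to 857691 for SUZ12, JARID2 and MTF2, and 298458 and 667898 for IgG in ESC and NPC. Levels are given as CPM, counts per 1000000 of that total, and since all windows have 1 width they can be compared between genes. The histone windows held 0.407% to 0.536% of the counts in H3K4me3 libraries, 0.0835% to 0.158% in H3K27me3 and 0.195% to 0.241% in IgG. By H3K4me3, 5 of 6 ESC marker genes were lower in NPC and 5 of 6 NPC markers higher. Of the markers of other lineages, all 3 neuronal genes were higher in NPC, their summed level going from 41.0 and 43.1 CPM to 135 and 158 CPM. Foxa2 was the only 1 of 3 endodermal genes that was higher, Sox17 was lower, and the summed endodermal level went from 106 and 84.8 to 165 and 175 CPM. Of 3 mesodermal genes 1 was higher and 2 lower, and of 3 trophectodermal genes 2 were lower. No marker was at 0 in any H3K4me3 library. The part of other cell types in the results below was not tested. The 2 H3K27me3 libraries of NPC differed from each other more than any other replicates (chi-square per degree of freedom 6.67, against 0.998 to 2.39 elsewhere).

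The overlaps follow the layout of the clusters. Member windows formed 29 separate blocks, the largest with 8 windows, and 7 windows overlapped none (Hist3h2ba, Hist1h4j, Hist1h3e, Hist1h4d, Hist1h1c, Hist1h2al and Hist2h4). The window of Hist4h4 overlapped that of H2afj, a gene outside the set. In all, 28 genes lay in 14 divergent pairs whose start sites were under 1000 bp apart (167 to 607 bp, median 224.5 bp), 13 of them an H2A with an H2B gene and 1 an H2B with an H3 gene. Windows of such a pair shared 87.9% to 96.7% of their length, so that counts near both starts enter both values. Hist1h2al, although named for the Hist1 cluster, lay 27268605 bp from the nearest other member, and its RefSeq transcript is annotated as non-coding.

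The promoters of the genes on which the results turn are given as the 250 bases before the RefSeq start in GRCm38.p6 (mm10), 5′ to 3′, with matches of the searched motifs in capitals. Hist3h2ba and Hist3h2a are from the small Hist3 cluster, Hist1h1e and Hist1h1b are linker histone genes with opposite H3K27me3 changes, Hist1h2ba is a testis gene, and Hist4h4 is the single gene of the Hist4 cluster.
Hist3h2ba, chr11:58948661-58948910, plus strand: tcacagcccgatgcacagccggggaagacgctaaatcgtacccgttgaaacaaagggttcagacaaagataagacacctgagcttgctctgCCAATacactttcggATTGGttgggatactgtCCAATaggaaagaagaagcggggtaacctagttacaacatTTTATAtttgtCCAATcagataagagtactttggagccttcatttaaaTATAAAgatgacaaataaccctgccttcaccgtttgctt
Hist3h2a, chr11:58954435-58954684, plus strand: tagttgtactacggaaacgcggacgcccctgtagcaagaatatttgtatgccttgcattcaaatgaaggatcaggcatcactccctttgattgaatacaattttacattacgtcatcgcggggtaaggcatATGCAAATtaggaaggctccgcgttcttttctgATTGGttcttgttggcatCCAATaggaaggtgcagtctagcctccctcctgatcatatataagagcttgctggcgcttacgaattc
Hist1h1e, chr13:23622559-23622808, minus strand: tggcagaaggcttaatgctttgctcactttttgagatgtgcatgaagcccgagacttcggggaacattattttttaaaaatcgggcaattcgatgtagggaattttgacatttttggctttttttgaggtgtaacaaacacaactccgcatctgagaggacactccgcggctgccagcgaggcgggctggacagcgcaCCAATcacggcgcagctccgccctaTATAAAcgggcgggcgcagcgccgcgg
Hist1h2ba, chr13:23934157-23934406, minus strand: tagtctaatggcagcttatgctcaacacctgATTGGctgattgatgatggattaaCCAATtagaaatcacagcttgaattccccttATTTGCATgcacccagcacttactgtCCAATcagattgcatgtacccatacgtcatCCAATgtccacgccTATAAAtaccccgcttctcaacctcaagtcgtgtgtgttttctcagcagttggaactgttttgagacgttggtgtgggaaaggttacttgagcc
Hist1h1b, chr13:21780626-21780875, minus strand: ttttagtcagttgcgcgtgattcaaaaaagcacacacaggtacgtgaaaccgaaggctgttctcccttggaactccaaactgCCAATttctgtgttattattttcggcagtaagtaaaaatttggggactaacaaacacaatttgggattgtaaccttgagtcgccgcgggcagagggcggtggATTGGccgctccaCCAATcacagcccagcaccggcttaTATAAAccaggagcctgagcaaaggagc
Hist4h4, chr6:136804432-136804681, minus strand: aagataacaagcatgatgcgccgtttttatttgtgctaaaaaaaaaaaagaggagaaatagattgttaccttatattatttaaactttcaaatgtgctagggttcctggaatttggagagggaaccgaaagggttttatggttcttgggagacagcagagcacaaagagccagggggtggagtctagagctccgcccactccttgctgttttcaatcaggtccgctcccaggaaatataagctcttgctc

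Motifs were searched on both strands. The TATA box was taken as TATAAA and the octamer, a site for OCT1, as ATTTGCAT. For the factor NF-Y the letters CCAAT were used, and for the E2F family either TTTGGCGC or TTTCCCGC. No match in the sequences printed overlapped another. Of the 69 genes, 62 had a RefSeq promoter whose start lay within 50 bp of the window centre, and in these the search covered 300 bases, 250 before to 50 after the start. Hist1h2al had none, so its promoter is not printed. A TATA box was found in 56.5% of the 62, against 13.6% of all 32851 RefSeq promoters of the same length, and a CCAAT box in 85.5% against 37.4%. CCAAT was in each of the 50 promoters of H1, H2A, H2B and H3 genes but in 3 of 12 H4 promoters. The octamer was in 21.0% against 1.74% of all promoters, in 7 of 18 H2A and 6 of 16 H2B promoters and in none of the other classes. Promoters of close divergent pairs, such as Hist1h2ah and Hist1h2bk, share bases, so the same match can count for both genes in all these shares. E2F matches were no more common than elsewhere, at 1.61% against 1.56%. Median GC content was 45.3%, against 52.7% over all promoters, while the median number of CpG was 11 against 7. A match is a description of the letters, not of a bound site.

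**Figure D1:**
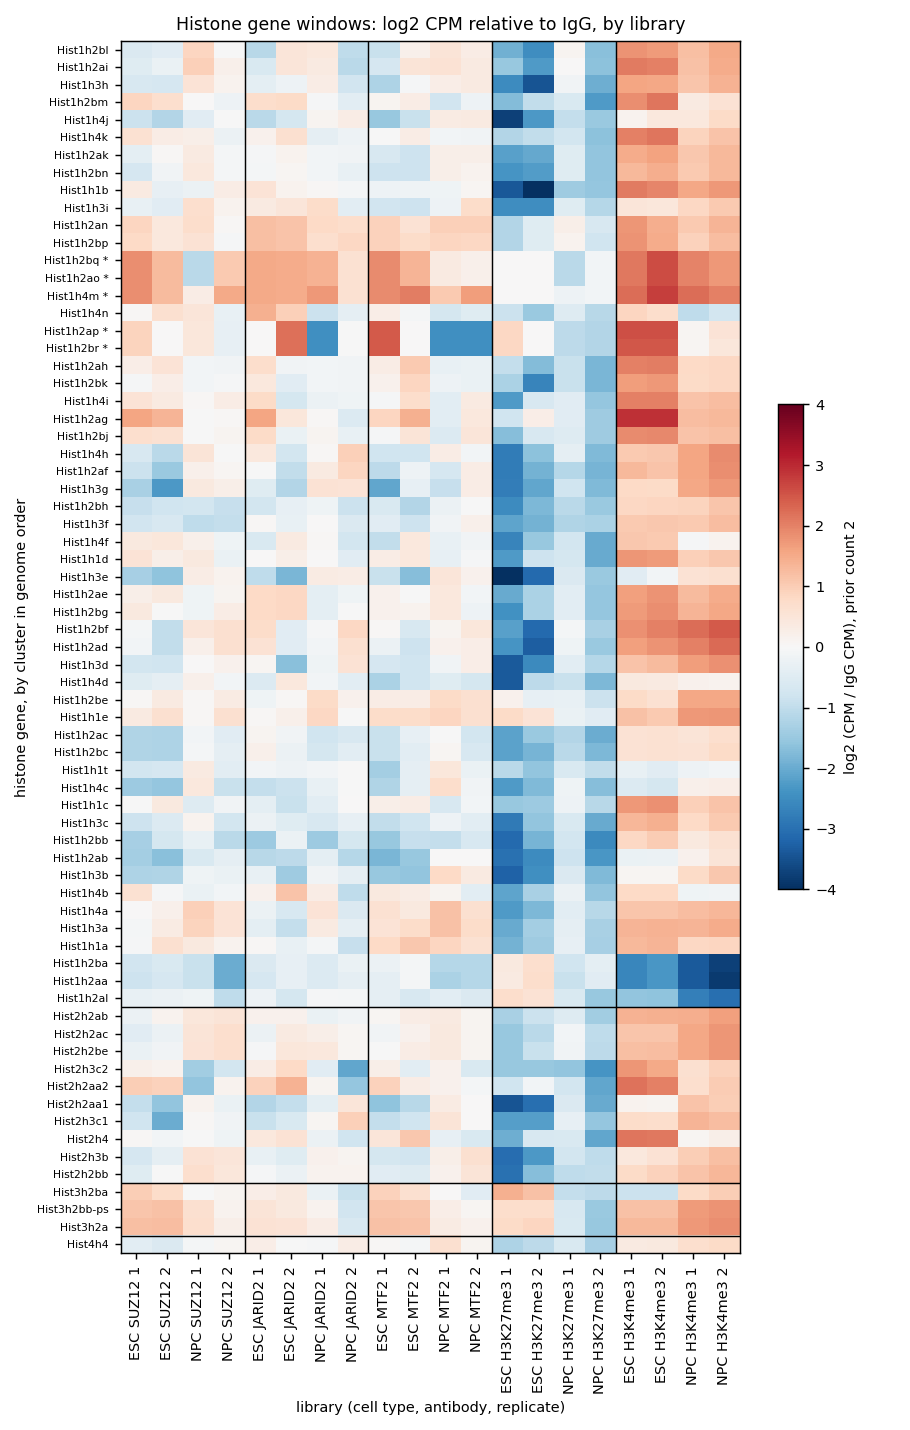
Level of the 69 histone gene windows relative to IgG of the same cell type, as log2 of CPM over IgG CPM with a prior count of 2, in each of the 20 antibody libraries (columns) with genes in genome order by cluster (rows). Both H3K4me3 libraries are above IgG at 61 genes in ESC and 62 in NPC, and both ESC H3K27me3 libraries are above it at 7 genes and below it at 55, while asterisks mark the 5 windows with under 5 IgG counts.

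H3K4me3 was present at most replication-dependent histone genes in both cell types. It exceeded IgG (log2 fold of at least 1 and adjusted p below 0.05 in edgeR's quasi-likelihood test over all 22 libraries) at 53 of the 64 windows that could be tested in ESC and at 57 of 64 in NPC, where 36.0% and 38.9% of all tested windows did. With library totals in place of TMM factors the numbers were 38 and 37, and by the fold alone, without a model, 44 and 33 of 69. It was below IgG at Hist1h2aa and Hist1h2ba in ESC, and at these and Hist1h2al in NPC, where 36.5% and 41.2% of all windows were. Over the 69 windows the median level was 57.9 and 60.2 CPM in the ESC libraries and 70.5 and 78.3 CPM in the NPC libraries. The highest H3K4me3 levels were at Hist3h2a and Hist3h2bb-ps in both cell types, followed by Hist2h2be in ESC (110 ± 1.81 CPM, SD, n = 2) and Hist1h1b in NPC (139 ± 12.2 CPM, SD, n = 2).

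The 5 windows not tested against IgG (Hist1h2bq, Hist1h2ao, Hist1h4m, Hist1h2ap and Hist1h2br) held under 5 IgG counts in both libraries together, as did 1.93% of all windows, while the other 64 held at least 15 and a median of 33. No library other than H3K4me3 gave any of the 5 more than 5 counts. Many core histone genes of the same class are closely similar in their coding sequence. How reads that align to several places were handled is not given in the sources used here. Differences between closely similar copies are therefore uncertain.

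Between the cell types, H3K4me3 rose at 38 of 69 histone windows in NPC and fell at 4, where 26.7% of all tested windows rose and 29.2% fell. The median log2 change was 0.28 for the histone windows and -0.02 for all windows. IgG was also higher at the histone windows in NPC, with a median of 35.9 CPM against 26.8 CPM in ESC. Their share of the IgG counts was 0.241% in NPC and 0.195% in ESC, in 1 library each. The H3K4me3 changes were not corrected for IgG, and whether they exceed its shift was not tested. The 38 rises lay in 20 of the 29 blocks. Most rises were small, and their number depended on the libraries and the method: it was 15 without either ESC library, 19 without NPC replicate 2, 52 without NPC replicate 1, 11 with DESeq2 and 15 with scaling factors from background windows. Under that last scaling the median change of all windows was 0.26 and that of the histone windows 0.54.

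**Figure D2:**
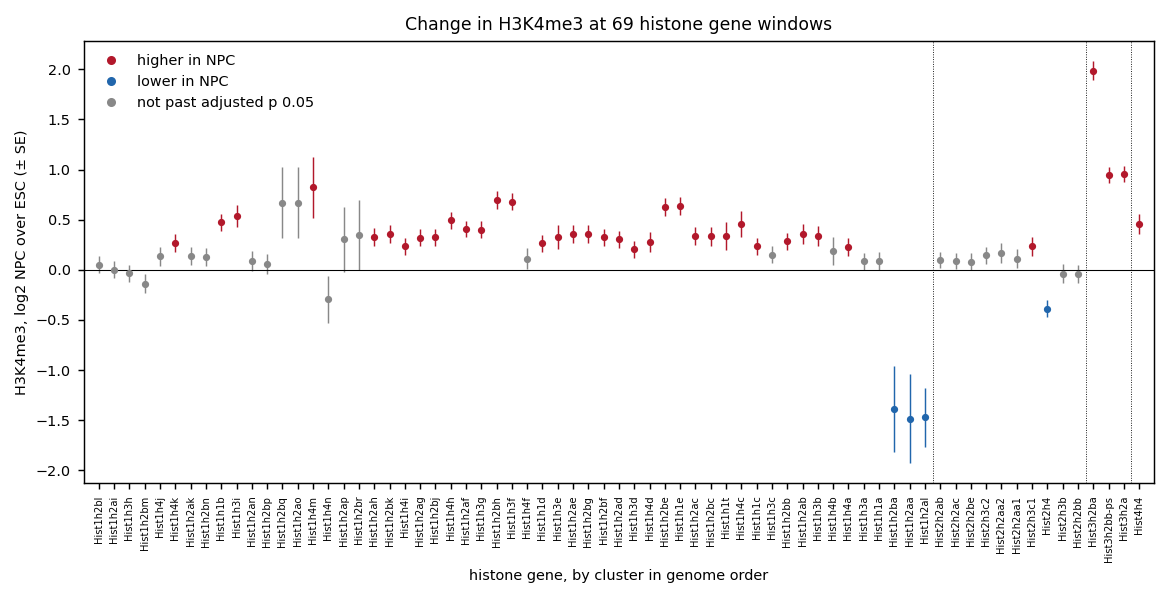
Change in H3K4me3 at each of the 69 histone windows (log2 NPC over ESC, points, with the standard error of the fit as bars), in genome order by cluster with dotted lines between clusters, coloured by the call at adjusted p below 0.05. Most points of Hist1 lie slightly above 0, the 3 Hist3 genes reach 0.95 to 1.99, and 3 genes at the end of the Hist1 series lie near -1.4 to -1.5.

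The Hist3 cluster had the largest rises. Hist3h2ba, an H2B gene whose window overlaps no other, had 28.6 and 29.0 CPM of H3K4me3 in the ESC libraries and 104 and 122 CPM in the NPC libraries, so that the NPC values were well above those of ESC. The log2 change was 1.99 ± 0.10 (SE, adjusted p = 5.19e-89). IgG at this window was 53.6 CPM in ESC and 61.4 CPM in NPC. On library totals the gene was below IgG in ESC (log2 -0.87 and -0.86 in the 2 libraries) and above it in NPC (0.75 and 0.97), while in the fit with TMM factors the values were -0.05 in ESC and 1.81 in NPC (adjusted p = 2.68e-05 in NPC). Hist3h2a, the H2A gene of the cluster, started from a high level of 116 CPM in both ESC libraries and reached 219 and 235 CPM in NPC (log2 change 0.95 ± 0.08, SE, adjusted p = 8.11e-30). Its divergent partner Hist3h2bb-ps, an H2B pseudogene whose start is 172 bp away, gave nearly the same values because the windows are nearly the same (log2 change 0.95 ± 0.08, SE). These 3 rises passed the test in every alternative in which they were tested.

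Most of the rises lay in the Hist1 cluster, which holds 55 of the 69 members. With the cluster divided at gaps of over 100000 bp between starts, a division made after the values were seen, 29 genes from Hist1h4h to Hist1h1a formed the largest stretch, and 24 of them rose (median log2 change 0.33). In the 5 genes from Hist1h2ah to Hist1h2bj, 5 rose (median 0.32). In the 18 genes from Hist1h2bl to Hist1h2br, 4 rose (median 0.14), and the difference between the stretches was not tested. The largest rises in Hist1 were at Hist1h4m, 1 of the windows with few counts (0.82 ± 0.30, SE, adjusted p = 0.0133), and at Hist1h2bh (0.69 ± 0.09, SE, adjusted p = 5.58e-14). Hist1h2bh, an H2B gene, had 54.9 and 55.8 CPM in ESC and 82.4 and 94.8 CPM in NPC, without overlap. The rise at Hist1h4m was lost without ESC replicate 1 and with DESeq2.

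In Hist2, 1 of 10 genes rose (Hist2h3c1, an H3 gene, 0.23 ± 0.09, SE, adjusted p = 0.0213), 1 fell and 8 did not pass the test. The gene that fell was Hist2h4, an H4 gene whose window overlaps no other, with 93.8 and 91.4 CPM in ESC and 66.5 and 74.5 CPM in NPC (log2 change -0.39 ± 0.09, SE, adjusted p = 1.93e-05). That fall was lost with background scaling and in the fit over all libraries. Hist2h2be had a change of 0.08, Hist2h2aa1 of 0.11 and Hist2h3b of -0.04, none past the test. Hist4h4 rose from 43.2 and 44.5 to 58.2 and 61.7 CPM (0.45 ± 0.10, SE, adjusted p = 1.01e-05), while H2afj, whose window it overlaps, fell (-0.61 ± 0.08, SE, adjusted p = 2.35e-12). The rise at Hist4h4 was lost with DESeq2, and the fall at H2afj with background scaling.

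The other falls were at genes with very little H3K4me3. Hist1h2ba and Hist1h2aa encode the testis histones TH2B and TH2A from a divergent promoter. Hist1h2ba had 8.2 and 10.2 CPM in ESC and 4.3 and 3.1 CPM in NPC, against 57.0 and 56.9 CPM of IgG, and its log2 change was -1.39 ± 0.43 (SE, adjusted p = 0.00296). Hist1h2aa shared nearly all of that window (-1.48 ± 0.44, SE, adjusted p = 0.00195), and both falls were lost without either ESC library. Hist1h2al went from 13.8 and 13.3 to 5.8 and 4.5 CPM (-1.47 ± 0.29, SE, adjusted p = 1.85e-06), against 43.6 and 46.4 CPM of IgG. Since these levels were below IgG in NPC, the falls are between low values.

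Of the 6 linker histone genes, 5 rose in H3K4me3 and none fell. Of all 69 members 38 rose, and of all tested windows 26.7% rose and 29.2% fell. Hist1h1e had the largest change, from 61.5 and 57.2 CPM in ESC to 91.9 and 95.4 CPM in NPC (0.64 ± 0.09, SE, adjusted p = 3.05e-12), followed by Hist1h1b, from 103 and 95.5 to 130 and 147 CPM (0.47 ± 0.08, SE, adjusted p = 4.66e-08). In both genes the NPC values were above the ESC values. The smaller rises at Hist1h1t (0.34), Hist1h1d (0.26) and Hist1h1c (0.23) were each lost in 5 or more of the alternatives, and Hist1h1a (0.09) did not pass the test. Hist1h1t, the testis linker histone, was not above IgG in either cell type, with 24.2 and 21.5 CPM against 30.2 CPM of IgG in ESC.

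H3K27me3 was scarce at most histone genes, and 7 stood out in ESC. It exceeded IgG there at Hist3h2ba (log2 1.94 ± 0.45, SE, adjusted p = 0.000649), Hist3h2a (1.43), Hist3h2bb-ps (1.33), Hist1h1e (1.32), Hist1h2al (1.28), Hist1h2ba (1.14) and Hist1h2aa (1.13), where 22.5% of all tested windows did, and these 7 of 64 lay in 5 blocks. At 26 of the 64 it was below IgG, as at 21.8% of all windows. In NPC none of the 64 was above IgG, against 15.1% of all windows, and none below it, against 1.07%, while 63 of them were within 2-fold of it (at an unadjusted p below 0.05, 0 were above and 1 below). With library totals in place of TMM factors, 1 member was called above IgG in ESC, and the number was 3 without ESC replicate 1 and 5 without ESC replicate 2. On library totals, both NPC libraries were below IgG at 65 of the 69 windows and both above it at 0.

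**Figure D3:**
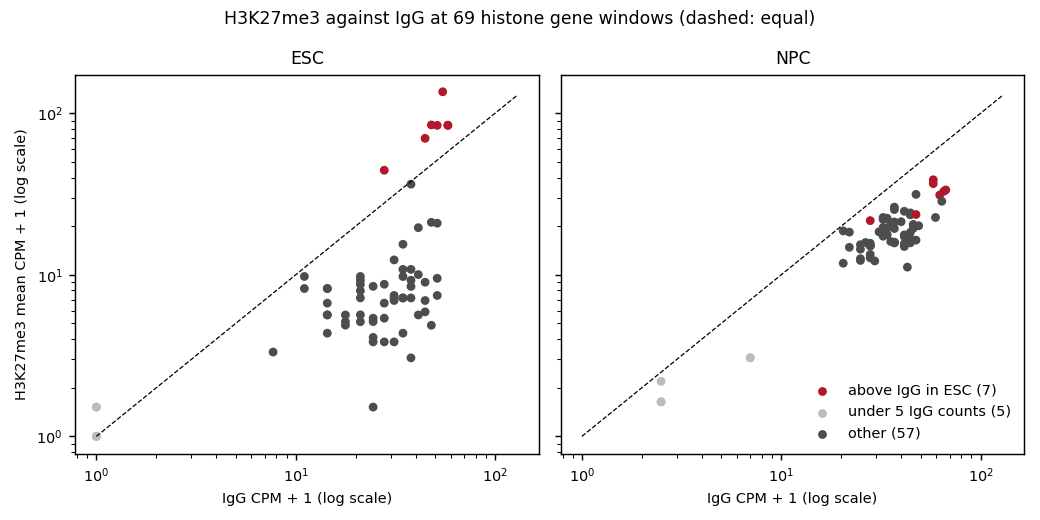
Mean H3K27me3 CPM of the 2 libraries (vertical) against IgG CPM (horizontal) at the 69 histone windows in ESC and NPC, both plus 1 on log scales and with no scaling between libraries, the dashed line marking equal values. In ESC the 7 genes called above IgG lie above the line and the others below or near it. In NPC the same 7 lie below the line. The highest means of all members in NPC are still among these 7, at Hist1h2ba (37.7 CPM), Hist1h2aa (35.7 CPM) and Hist3h2bb-ps (32.5 CPM).

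In the individual libraries, Hist3h2ba had the highest H3K27me3 of all members in ESC, 146 and 124 CPM, against 31.0 and 29.3 CPM in NPC. The ESC values were above, and the NPC values below, the 53.6 and 61.4 CPM of IgG at this window. The next genes in ESC, Hist3h2a (80.8 and 86.5 CPM), Hist1h2ba (75.6 and 91.1 CPM), Hist3h2bb-ps (82.8 and 83.4 CPM) and Hist1h2aa (73.5 and 92.6 CPM), did not differ beyond their spread. Hist1h2al followed with 71.5 and 66.4 CPM and Hist1h1e with 46.6 and 40.1 CPM. Hist1h2be, an H2B gene whose start is 1434 bp from that of Hist1h1e, had 41.4 and 29.3 CPM and was not called above IgG (log2 0.59). All other members were below 25 CPM in both ESC libraries, and the median was 5.18 and 7.72 CPM.

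From ESC to NPC, H3K27me3 fell at these 7 genes and no others, out of the 40 members that passed the filter on low counts, where 23.5% of all tested windows fell. Hist1h2be (log2 change -0.64, adjusted p = 0.0779 in edgeR) did not pass here but did with background scaling. The comparisons with IgG and with NPC use the same ESC libraries. Hist3h2ba fell the most, with a log2 change of -1.94 ± 0.47 (SE, adjusted p = 0.000239). Hist1h2al fell from 71.5 and 66.4 to 29.9 and 15.3 CPM (-1.50 ± 0.33, SE, adjusted p = 4.92e-05), and this fall was the only 1 of the 7 that passed in all 13 alternatives. Hist3h2a went to 42.1 and 21.7 CPM in NPC (-1.27 ± 0.36, SE, adjusted p = 0.00181), below both ESC values. The falls at Hist3h2ba and Hist3h2a were lost only without ESC replicate 1. The number of falls was then 1, and it was 4 without NPC replicate 1. Those at Hist3h2bb-ps (-1.23), Hist1h2aa (-0.92), Hist1h1e (-0.88) and Hist1h2ba (-0.85) were lost in 4 to 6 alternatives each, all 4 with DESeq2.

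H3K27me3 rose at 21 of the 40 members tested, where 22.9% of all tested windows rose. Members were tested only if they had enough counts in some libraries, so those that were low in ESC entered through NPC. Without the filter, 38 of 69 rose and 7 fell, against 21.4% and 22.5% of all windows. None of these rises reached a level above IgG. In the fit with TMM factors, 20 of the 21, and 37 of the 38, were below IgG in ESC, and all were within 2-fold of it in NPC. On library totals Hist1h1b, the largest rise, was more than 2-fold below IgG in both NPC libraries (log2 -1.41 and -1.54). The ESC counts behind them were small, with a median of 5 counts per histone window in each ESC library. The 2 NPC libraries also differed, with median levels of 23.3 and 10.8 CPM over the 69 windows. Without NPC replicate 1 the number of rises was 9, without ESC replicate 1 it was 6, with background scaling 6, and with library totals or DESeq2 it was 2.

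Among the 40 members that passed the filter, the largest H3K27me3 rises were at Hist1h1b, Hist1h3d and Hist1h1c. Without the filter, Hist1h3h (2.58), Hist1h3e (2.57) and Hist1h4b (2.46), which had 1 to 4 counts in each ESC library, rose by more than Hist1h3d (2.26) and Hist1h1c (2.05). At Hist1h1b, 1 count in the ESC libraries together stood against 36 in NPC, a ratio of 23.5 per count of the library with a 95% exact binomial interval of 3.96 to 953, which covers counting error only. Hist1h3d, an H3 gene, had 2.1 and 4.6 CPM in ESC and 18.8 and 10.8 CPM in NPC (2.33 ± 0.69, SE, adjusted p = 0.00291). Hist1h1c, a linker histone gene with a window of its own, went from 7.2 and 7.7 to 39.9 and 21.0 CPM (2.12 ± 0.43, SE, adjusted p = 1.19e-05), against IgG of 23.5 CPM in ESC and 46.4 CPM in NPC. Hist1h1b and Hist1h1c passed in every alternative in which they were tested, while Hist1h3d was lost in 4 of 11, including library totals and DESeq2. Hist1h1a (1.74, lost in 3 of 11) and Hist1h1d (1.44, lost in 7 of 11) also rose, Hist1h1t did not pass (0.83), and Hist1h1e was the only linker histone gene that fell.

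Both marks were above IgG in ESC at 3 genes, Hist3h2a, Hist3h2bb-ps and Hist1h1e, against 2.29% of all tested windows, and in NPC at none, against 4.05%. The first 2 of these share a window almost entirely. Hist3h2ba had H3K27me3 but no H3K4me3 above IgG in ESC and the reverse in NPC. The calls of both marks rest on a log2 fold of at least 1, and at a fold of at least 2 none of the 3 remained.

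**Figure D4:**
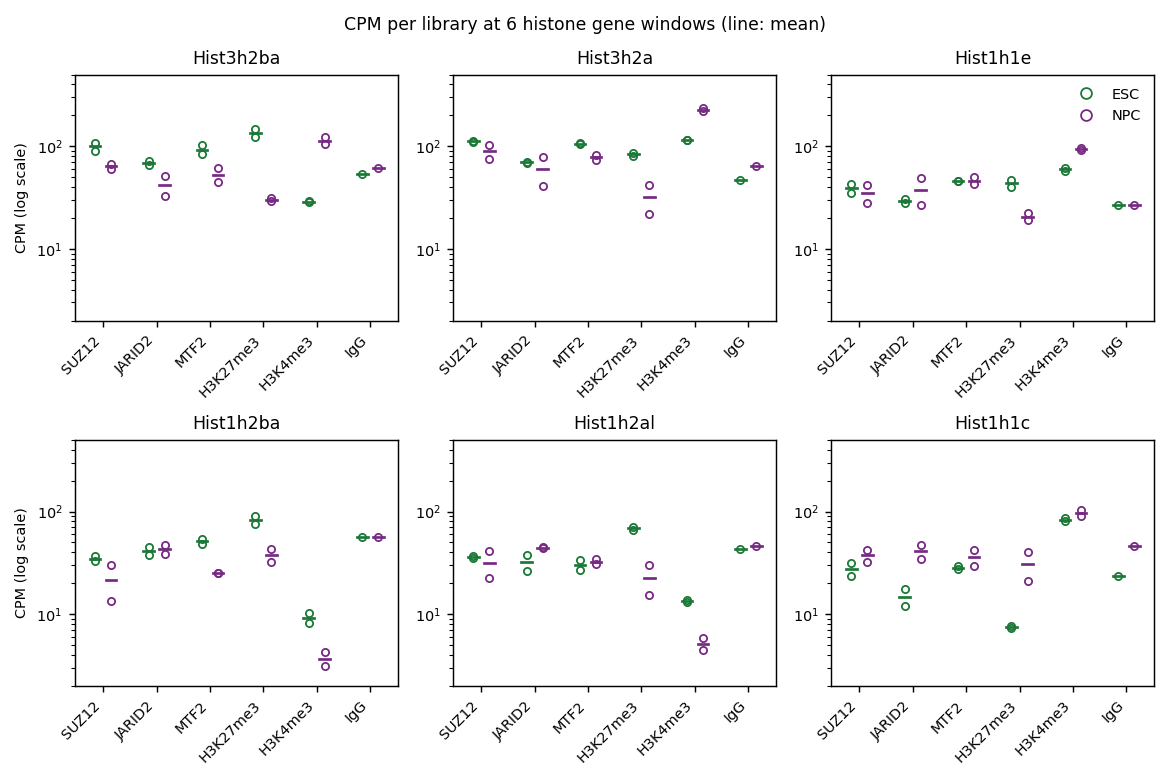
CPM (log scale) in each library for Hist3h2ba, Hist3h2a, Hist1h1e, Hist1h2ba, Hist1h2al and Hist1h1c, by antibody, with ESC in green and NPC in purple, points for libraries and lines for their mean (IgG has 1 library per cell type). At Hist3h2ba, H3K27me3 goes from 146 and 124 CPM to 31.0 and 29.3 CPM while H3K4me3 goes from 28.6 and 29.0 to 104 and 122 CPM, and the PRC2 subunits lie between 32.4 and 108 CPM.

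The PRC2 subunits gave few calls over IgG at histone genes. In NPC, and for JARID2 also in ESC, no window of any gene was called, so these comparisons show nothing particular to histone genes. SUZ12 was above IgG at none of the 64 tested in either cell type, although 5.67% of all windows were in ESC and 0.00% in NPC, and none was below IgG in ESC, against 0.512%. At an unadjusted p below 0.05, 4 members were above IgG in ESC and 0 in NPC. MTF2 was above IgG in ESC at Hist3h2a alone (1.61 ± 0.54, SE, adjusted p = 0.0440), against 9.10% of all windows, and none was below IgG, against 1.75%. With the IgG libraries of both cell types as the background, 6 members were called for MTF2 and 3 for SUZ12 in ESC, and with library totals none for MTF2. Without ESC replicate 1 of MTF2 the number was 0, and without replicate 2 it was 2. In NPC MTF2 was above IgG at none (3 at an unadjusted p below 0.05), and JARID2 at none in ESC or NPC (0 at an unadjusted p below 0.05), as was the case for 0.00% of all windows in these 3 comparisons.

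The highest SUZ12 and MTF2 levels among members were again in the Hist3 cluster. Hist3h2a had 110 and 113 CPM of SUZ12 and 108 and 104 CPM of MTF2 in the ESC libraries, against 46.9 CPM of IgG, and 103 and 75.8 CPM of SUZ12 and 81.9 and 73.5 CPM of MTF2 in NPC, against 64.4 CPM of IgG. IgG itself was higher at the 3 Hist3 windows (46.9 to 53.6 CPM in ESC) than at the median member (26.8 CPM). Across the 64 members with at least 5 IgG counts, log2 mean CPM of SUZ12 and MTF2 correlated with Pearson's r of 0.86 in ESC, and SUZ12 and H3K27me3 with 0.77. In NPC the values were 0.67 and 0.51, all as a description over windows that share reads and libraries.

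Hist3h2ba was the member at which SUZ12 fell, from 108 and 90.7 CPM in ESC to 60.1 and 66.9 CPM in NPC (-0.92 ± 0.24, SE, adjusted p = 0.00151). It was 1 of 61 tested, where 13.1% of all windows fell, and the fall was lost without ESC replicate 1, without NPC replicate 1, at the higher minimum count and in the fit over all libraries. SUZ12 rose at 6 of the 61, against 2.97% of all windows, led by Hist1h2ai (an H2A gene, 14.0 and 16.7 to 64.4 and 37.9 CPM, 1.51 ± 0.37, SE, adjusted p = 0.000604), Hist2h4 (21.0 and 18.5 to 62.2 and 55.7 CPM, 1.30 ± 0.33, SE, adjusted p = 0.00111) and Hist1h3g (1.25 ± 0.38, SE, adjusted p = 0.00901). The NPC values of these genes were above the ESC values, but none was called above IgG in NPC, where 0.00% of all windows were. IgG in ESC and NPC was 20.1 and 32.9 CPM at Hist1h2ai, 50.3 and 35.9 CPM at Hist1h3g, and 20.1 and 62.9 CPM at Hist2h4. In CPM, both NPC libraries were thus above IgG at Hist1h2ai and Hist1h3g (47.2 and 42.3 CPM) and below it at Hist2h4. The number of SUZ12 rises was 1 without NPC replicate 1 and 15 with library totals. DESeq2 gave an adjusted p for none of the 6.

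MTF2 fell at 3 of 63 members, where 8.89% of all windows fell: Hist1h2ba (48.1 and 54.3 to 25.0 and 25.1 CPM, -1.28 ± 0.34, SE, adjusted p = 0.00622), its partner Hist1h2aa (-1.28) and Hist3h2ba (102 and 83.5 to 61.5 and 44.5 CPM, -1.12 ± 0.36, SE, adjusted p = 0.0252). It rose at 4, where 3.28% of all windows rose, namely Hist1h3b (1.35), Hist1h2ak (1.20), Hist1h2ab (1.19) and Hist1h4j (1.09). Hist1h4j, an H4 gene with a window of its own, had 14.4 and 23.0 CPM in ESC and 45.5 and 46.4 CPM in NPC, against 43.6 and 35.9 CPM of IgG. No fall and no rise in MTF2 remained without ESC replicate 1 or without NPC replicate 1, and no rise without NPC replicate 2. DESeq2 gave an adjusted p for 1 of the 3 falls and none of the 4 rises.

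JARID2 changed at none of 58 members, where 0.0792% of all windows rose and 0.750% fell. At an unadjusted p below 0.05, 8 were higher and 1 lower, and DESeq2 gave no member an adjusted p. The smallest p-values were at Hist1h1c (1.39 ± 0.46, SE, adjusted p = 0.182), Hist1h2af (0.92 ± 0.34, SE, adjusted p = 0.271) and Hist1h3g (0.91 ± 0.36, SE, adjusted p = 0.334). Hist1h1c, for example, had 17.6 and 11.9 CPM in ESC and 34.5 and 47.1 CPM in NPC, without overlap, but IgG was also higher in NPC (23.5 against 46.4 CPM). A member had a median of 10 to 17 counts per JARID2 library.

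Genes that serve histone mRNA synthesis and processing moved in both directions in H3K4me3. Of 17 tested from a list of 18, 5 rose and 7 fell, against the 26.7% and 29.2% of all windows given above. The rises included Ncbp1 (0.53), which encodes a nuclear cap-binding protein, Casp8ap2 (0.30), which encodes FLASH of the histone locus body, and Eri1 (0.29), an exonuclease that trims histone mRNA ends. The falls included E2f1 (-0.62), Lsm10 (-0.61), a component of the U7 snRNP, and Ccne1 (-0.41), which encodes cyclin E1. In H3K27me3, 9 of 16 rose, led by Cdk2 (2.06), E2f1 (2.06) and Sympk (1.40), and none fell, against 22.9% and 23.5% of all windows. The filter on low counts was the same as for the members. Levels relative to IgG are not given for these genes, so the rises need not be levels above background. Cdk2 was lost in 4 of 11 alternatives, E2f1 in 4 of 12 and Sympk in 6 of 12, all 3 with DESeq2 and without ESC replicate 1. SUZ12 rose at E2f1 (1.09, lost in 3 of 10) and fell at Sympk (-0.92, lost in 4 of 11), and JARID2 and MTF2 changed at none. With background scaling, Casp8ap2, Eri1, E2f1, Lsm10 and Ccne1 in H3K4me3 did not pass.

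Replication-independent histone genes encode variants, most of which are not made in S phase alone. Of the 12 listed, 6 fell in H3K4me3, led by H2afy (-0.74), H2afx (-0.73) and H2afj (-0.61), and 1 rose, H1f0, which encodes the linker histone of differentiated cells (48.7 ± 0.64 to 85.6 ± 1.01 CPM, SD, n = 2, log2 0.80 ± 0.09, SE, adjusted p = 1.87e-17). Of all tested windows, 29.2% fell and 26.7% rose in H3K4me3. The difference from the replication-dependent genes was not tested, and with background scaling the 3 falls did not pass. In H3K27me3, 4 of 11 rose (H2afj, 1.61, H2afv, 1.55, H2afx, 1.48, and H2afy) and 1 fell, H1foo, which encodes the oocyte linker histone (-1.88 ± 0.36, SE, adjusted p = 5.08e-06), against 22.9% and 23.5% of all windows. Here too, levels relative to IgG are not given, so the rises need not be levels above background. The rises at H2afj, H2afv and H2afx were lost with library totals and with DESeq2, and the fall at H1foo in none of 13 alternatives. SUZ12 fell at H1f0 (-0.86) and H2afy2 (-0.80), each lost in 6 of 11 alternatives, and MTF2 at H2afy2 (-1.15), lost in 4 of 13. All 12 were tested for both, and of all windows 13.1% fell for SUZ12 and 8.89% for MTF2.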

How the data were processed

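Reads from CUT&RUN libraries were counted by the authors: the deposited values are counts, whole numbers per 5000 bp window around 1 TSS per gene, not normalized. Per the submitters' processing notes, the genome build was mm10, the aligner Bowtie2 2.3.4.3 and a further tool Picard 2.19, for a step that no label names. Drosophila spike-in DNA was added per the labels' protocols but did not enter these values, so a uniform gain or loss over all windows would be missed.

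Each antibody's 4 libraries were tested for NPC over ESC with edgeR 4.0.16 (R 4.3.3), 2-sided quasi-likelihood tests, TMM scaling, filterByExpr at a minimum count of 10 and Benjamini-Hochberg adjustment over all windows tested. A joint fit of all 22 libraries tested each antibody over IgG, whose 1 library per cell type is assumed to vary like the other groups. The script was tested on simulated data. Alternatives were library totals, TMM factors from background windows, no filter, a minimum count of 30, DESeq2 1.42.0, a replicate block, windows that overlap no other, and each library left out. Dividing Hist1 at gaps, the NPC JARID2 libraries summed, 1 window per block and a crossed block were chosen after seeing the data.

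The members and gene lists were chosen with earlier results of these data known. Named genes were, per antibody, the 3 largest rises and falls past the test (or the 3 smallest p), the 3 highest and lowest levels, fixed genes (linker histones, testis genes, Hist3, Hist4 and 5 Hist2 genes), members of counts of 5 or fewer, and up to 3 per direction of the 2 comparison lists. The labels state no pairing, so the main fits have no block. Deviations of libraries with equal replicate numbers correlated at -0.20 to 0.01. This cannot exclude pairing, since several replicates differed by little more than sampling noise. Intervals and floors cover counting error only, since PCR copies are not independent. Promoters came from RefSeq (GRCm38.p6): all 69 genes were matched by transcript accession.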

Additional observations from a re-analysis of the deposited data

How the results depend on the processing

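No alternative changed the direction of a named gene that was called. Of 800 values of named genes under alternatives, 607 kept their side of the threshold, 186 lost it, 4 gained it and 3 changed sign, all at Hist3h2a where the change was not called: 0.28 for SUZ12 and 0.18 for MTF2 at a minimum count of 30, and, for JARID2 with 1 library left out, from -0.79 to 0.17 (without NPC replicate 2). Numbers of histone windows that moved by over 1.5 times follow, and the cause was not tested except where fewer windows were tested.

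With library totals, 15 windows were higher in NPC for SUZ12, 13 for MTF2 and 2 for H3K27me3 (6 lower), and above IgG there were 0 for MTF2 and 1 for H3K27me3 in ESC and 37 for H3K4me3 in NPC. With background TMM factors, 5 were lower for SUZ12, 0 higher for MTF2, 6 higher for H3K27me3 (8 lower) and 15 higher for H3K4me3 (3 lower). This scaling moved the median change of all windows from 0.07 to -0.16 for SUZ12, 0.07 to -0.28 for MTF2, 0.12 to -0.56 for H3K27me3 and -0.02 to 0.26 for H3K4me3. With no filter, 38 were higher for H3K27me3 and 25 for H3K4me3. At a minimum count of 30, with 3, 4 and 7 histone windows left, 0 were higher and 0 lower for SUZ12, 1 higher and 0 lower for MTF2, and 0 higher and 3 lower for H3K27me3. With DESeq2, 0 were higher for SUZ12 and 0 higher and 1 lower for MTF2, where it gave 4 and 7 of 69 windows an adjusted p, and 2 higher and 3 lower for H3K27me3 and 11 higher for H3K4me3. In 1 fit over all libraries, 2 were higher and 0 lower for SUZ12, 1 higher for MTF2, 47 higher for H3K27me3 and 12 higher for H3K4me3. Among the 7 windows that overlap no other, 1 was higher for SUZ12, 1 higher and 1 lower for MTF2, 4 higher and 2 lower for H3K27me3 and 3 higher and 2 lower for H3K4me3, while above IgG there were 0 for MTF2 and 2 for H3K27me3 in ESC, 4 and 6 for H3K4me3 in ESC and NPC, and 0 with both marks. With 1 window per block, of 27 tested for SUZ12 and MTF2, 19 for H3K27me3 and 29 for H3K4me3, 3 were higher for SUZ12, 1 for MTF2, 10 for H3K27me3 (4 lower) and 16 for H3K4me3.

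Above IgG of both cell types, 3 were called for SUZ12 and 6 for MTF2 in ESC. By the fold alone, without a model, 6 were called for SUZ12, 5 for JARID2, 5 for MTF2 and 1 for H3K27me3 in ESC, and 1 for MTF2 and 33 for H3K4me3 in NPC. At a log2 fold of at least 2, 33 and 33 were called for H3K4me3 in ESC and NPC, and 0 for MTF2, H3K27me3 and both marks in ESC.

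With 1 library left out, windows higher and lower in NPC were 1 to 5 and 0 to 2 for SUZ12, 0 to 5 and 0 to 3 for MTF2, 6 to 25 and 1 to 7 for H3K27me3, 15 to 52 and 2 to 7 for H3K4me3, and 0 for JARID2. Above IgG in ESC they were 3 to 5 for H3K27me3, 0 to 2 for MTF2 and 52 for H3K4me3, and in NPC 53 to 58 for H3K4me3. Whether libraries of equal number were paired is not known. A replicate block gave 6 higher and 2 lower for SUZ12, 0 and 0 for JARID2, 0 and 2 for MTF2, 14 and 5 for H3K27me3 and 34 and 4 for H3K4me3. With the numbers crossed, counts were 6 and 5 for MTF2 and 22 and 7 for H3K27me3. With the NPC JARID2 libraries, which differed by no more than sampling noise, summed into 1, the counts were 0 and 0. Depth limits the PRC2 subunits and H3K27me3 most, since a histone window held a median of 5 to 21 counts per library there.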
